A study of Mus musculus with 12 samples.

Results

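Mediator is the large coactivator complex that carries signals from DNA-bound transcription factors to RNA polymerase II at gene promoters. Its core is built of a head, a middle and a tail module held together by the backbone subunit Med14. A separable kinase module, made of cyclin C (Ccnc), a cyclin-dependent kinase (Cdk8 or its paralog Cdk19), Med12 or Med12l, and Med13 or Med13l, binds the core reversibly and, while bound, hinders its contact with the polymerase. The genes of this complex were taken as every row of the gene table whose symbol was Med, a number and an optional l, together with Cdk8, Cdk19 and Ccnc, which gave 33 genes of 29486. Of these, 32 passed the filter on low values, which 15596 genes of the whole table passed, and Med10 did not.

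The mRNA levels were measured by sequencing of polyadenylated RNA in primary B cells from the spleens of C57BL/6Babr mice. All cells had been activated with lipopolysaccharide (LPS, 10 µg/ml), a bacterial product that drives B cells to divide, and there were 4 libraries for each of 3 conditions. The condition named LPS had 48 h of LPS alone. The condition named LE had 48 h of LPS and then 4 h with 20 µM etoposide, a topoisomerase II poison that breaks DNA. The condition named LEKU had 47 h of LPS, 1 h with 10 µM KU55933, an inhibitor of the DNA damage kinase ATM, and then 4 h with etoposide at the same dose. No condition held KU55933 without etoposide, so an effect of the inhibitor alone cannot be told apart from its effect on damaged cells. It is not stated whether the cells on LPS alone were kept for the further 4 h.

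The values are normalized counts as deposited, and inside a condition the 4 columns differed by a single factor per library. Over all 29486 genes the ratio between any 2 columns of a condition was constant to within 1.4e-14 on the log2 scale. The table therefore holds 1 fitted level per gene and condition, no spread between replicates can be read from it, and no error or test is given for any difference. The column totals were 20739978 to 23935658 normalized counts in LPS, 22523516 to 30575195 in LE and 20400994 to 25052093 in LEKU. Levels are given as the fitted count of a condition after division by library size factors, differences as log2(level + 1), and a gene was called higher or lower when it passed 1.5-fold. The labels give each condition its own set of sequencing indexes, so index and condition cannot be told apart.

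The cells carried the transcripts of their label. The 7 B cell markers summed to 137242 in LPS, 74396 in LE and 83497 in LEKU, with Pax5, a B cell identity factor, at 5508, 1127 and 1167. The 6 T cell markers summed to 11.4, 13.1 and 13.4, and the 6 macrophage markers to 415, 470 and 431. The summed B cell markers were thus lower in both etoposide conditions, and their part in the differences of the Mediator genes was not tested. In bulk RNA, fewer cells of a type and less RNA per cell cannot be told apart. Cdkn1a, a p53 target that arrests the cell cycle, was at 409 in LPS, 13503 in LE and 10792 in LEKU.

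Few Mediator genes differed by much between the 3 conditions. In LE against LPS, 4 of the 32 members (12.5%) passed 1.5-fold, all of them lower, where 38% of all kept genes passed it in either direction, 22.2% higher and 15.8% lower. In LEKU against LE, 1 member (3.12%) passed, lower, against 18.8% of all kept genes in either direction, 7.06% higher and 11.8% lower. In LEKU against LPS, 3 members were lower and 1 was higher (12.5%), against 36.1% of all kept genes in either direction, 20.8% higher and 15.3% lower. The share of lower members in LE was near that of all genes, while 0 members were higher.

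In all, 26 of the 32 members (81.25%) stayed inside 1.5-fold in every comparison, against 49.8% of the 15596 kept genes and 55.4% of the 11112 kept genes whose mean level lay in the members' range. The median absolute difference was 0.20 for the members and 0.42 for all kept genes in LE against LPS, 0.13 and 0.26 in LEKU against LE, and 0.28 and 0.41 in LEKU against LPS. The size factors are medians of ratios over 15006 genes, so a median of all kept genes near 0 follows from the scaling. With these factors the signed medians lay close to 0. They were -0.022 for the members and -0.0023 for all kept genes in LE against LPS, and 0.0072 and -0.043 in LEKU against LE. In LEKU against LPS they were -0.058 and 0.031.

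**Figure D1:**
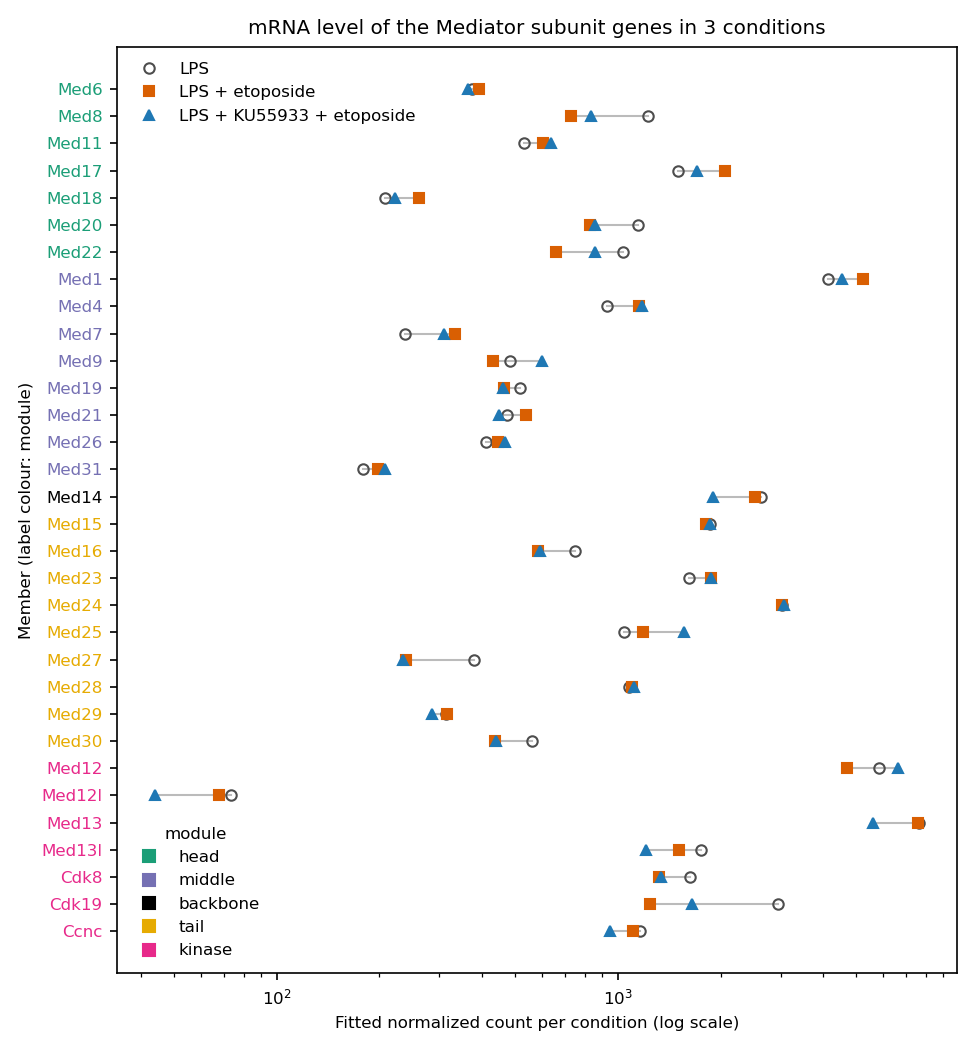
Fitted normalized count (log scale) of the 32 kept Mediator genes in LPS (open circles), LPS with etoposide (squares) and LPS with KU55933 and etoposide (triangles), with gene names coloured by module. For 26 of the 32 genes the conditions lie inside 1.5-fold of each other, while Cdk19 spreads from 1240 to 2950. Levels compare conditions within a gene only, because gene length was not divided out.

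The kinase module held the member with the largest difference. Cdk19, 1 of the 2 interchangeable kinases of the module, had deposited values of 2427, 2693, 2801 and 2524 in the LPS libraries, 1200, 1345, 1629 and 1304 in the LE libraries, and 1501, 1692, 1813 and 1843 in the LEKU libraries. The LE and LEKU columns lay below every LPS column, while those of LE and LEKU overlapped before library factors were removed. Columns of a condition differ by library factor alone, so this order says nothing about the spread of replicates. The fitted level of Cdk19 was 2950 in LPS, 1240 in LE and 1655 in LEKU. It was 2.38-fold lower in LE than in LPS (log2 difference -1.25). Only 3.17% of all kept genes were lower by more. With the ATM inhibitor the level lay between the other conditions, with log2 differences of 0.42 from LE and -0.83 from LPS (1.78-fold lower than LPS).

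Cdk8, the paralog, differed less, at 1628 in LPS, 1323 in LE and 1335 in LEKU, with log2 differences of -0.30 and 0.013 in LE against LPS and LEKU against LE. Divided by exonic length in kilobases, Cdk19 stood at 505 in LPS, 212 in LE and 283 in LEKU, and Cdk8 at 166, 135 and 136. Cdk19 thus made up 75.3% of the summed per-kilobase level of both kinases in LPS, 61.2% in LE and 67.6% in LEKU. Per kilobase, Cdk19 exceeded Cdk8 in every condition, by 3.05 times in LPS, 1.58 times in LE and 2.08 times in LEKU. The length was that of all annotated exons, 9.83 kb for Cdk8 and 5.85 kb for Cdk19. Without it Cdk8 was above Cdk19 in LE, at 1323 against 1240, so the order in LE rests on the length used. Their cyclin, Ccnc, was at 1160, 1104 and 951, with log2 differences of -0.071 in LE against LPS and -0.22 in LEKU against LE. Both sit far inside 1.5-fold, so of the kinases and their cyclin Cdk19 alone passed it.

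**Figure D2:**
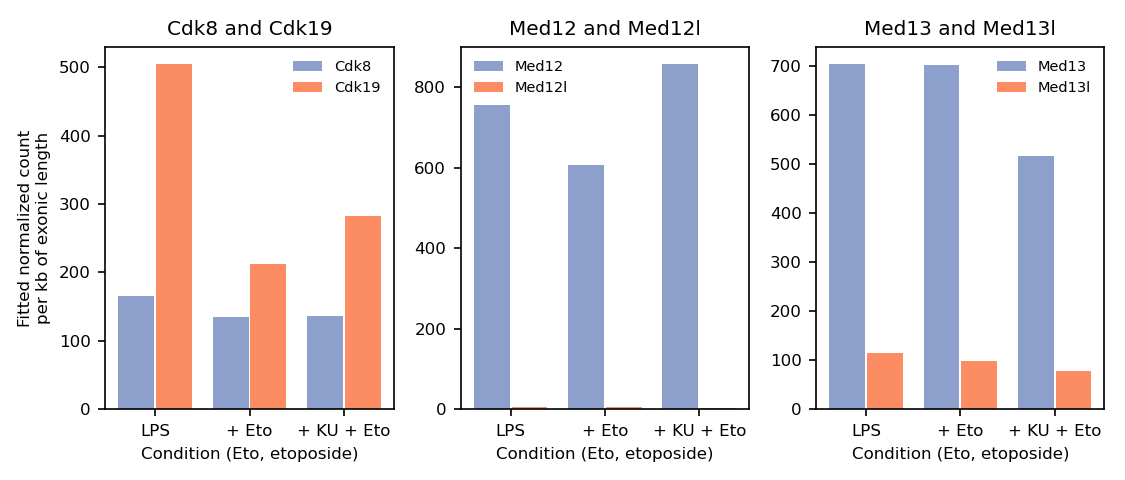
Fitted normalized count per kilobase of exonic length for the 3 paralog pairs of the kinase module in LPS, LPS with etoposide (+ Eto) and LPS with KU55933 and etoposide (+ KU + Eto), with a separate axis for each pair. Cdk19 stands above Cdk8 in each condition, Med12l is close to 0 beside Med12, and Med13 stands at 516 to 703 beside 78.6 to 114 for Med13l.

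Med13, the large subunit that ties the kinase module to the core, had a similar level in LPS and LE and a lower one with the inhibitor when scaled by the size factors. Its deposited values were 6272, 6958, 7238 and 6522 in the LPS libraries, 7357, 8246, 9987 and 7993 in the LE libraries, and 5075, 5723, 6131 and 6232 in the LEKU libraries. The LEKU columns lay below all the others, and the LE columns, which carried the larger library factors, lay above every LPS column. Columns of a condition differ by library factor alone, so their order says nothing about the spread of replicates. After division by size factors the fitted level was 7623 in LPS, 7602 in LE and 5597 in LEKU, with log2 differences of -0.0041 in LE against LPS, -0.44 in LEKU against LE and -0.45 in LEKU against LPS. The LEKU level was 26.4% below LE, a difference inside 1.5-fold. Its sign in LE against LPS turned with the scaling, over a range of -0.0095 to 0.27 that left out the columns as deposited. With quantile normalization the pattern was another, with LE 0.27 above LPS and LEKU at -0.095 from LPS.

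Its paralog Med13l was at 1754, 1513 and 1213, with log2 differences of -0.21 in LE against LPS, -0.32 in LEKU against LE and -0.53 in LEKU against LPS. Per kilobase, Med13 exceeded Med13l by 6.18 times in LPS, 7.15 times in LE and 6.57 times in LEKU. The pair thus kept its order with little movement of its ratio. Of the exonic bases of Med13, 7.38% are also exons of Brip1os on the opposite strand, which was at 1878 in LPS, 1652 in LE and 1160 in LEKU. The authors used a stranded library kit. Whether the counting used the strand is not given in the sources used here, so counts from the shared stretch cannot be assigned to either gene.

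Med12, which activates the kinase through cyclin C, was higher in LEKU than in LE, where Med13 was lower. It was at 5827 in LPS, 4680 in LE and 6608 in LEKU, with log2 differences of -0.32 in LE against LPS, 0.50 in LEKU against LE and 0.18 in LEKU against LPS. Its difference in LEKU against LE was the highest of the 32 members, and 9.53% of all kept genes were higher by more. It stayed under 1.5-fold except with quantile normalization, where it passed. Per kilobase, the ratio of Med12 to Med13 was 1.08 in LPS, 0.866 in LE and 1.66 in LEKU. Of the exonic bases of Med12, 9.72% are also exons of Gm21986 on the same strand. Gm21986 was at 29.9 in LPS, 65.9 in LE and 47.8 in LEKU.

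Med12l, the paralog of Med12, was the lowest member per kilobase in every condition. Its fitted level was 73.3 in LPS, 68.0 in LE and 44.1 in LEKU, and Med12 exceeded it per kilobase by 132, 114 and 248 times. It was the member called in LEKU against LE, at a log2 difference of -0.61 (1.53-fold lower), and it was also lower in LEKU against LPS, at -0.72 (1.65-fold). The call in LEKU against LE was lost with TMM factors, with library totals, with quantile normalization and with a pseudocount of 5. The call in LEKU against LPS was lost with library totals, at -0.56, and with the columns as deposited. Its exons share 17.3% of their bases with other genes, among them Igsf10 on the opposite strand.

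As a group, all 7 kinase module genes lay below 0 in LE against LPS, where 7820 of the 15596 kept genes did. Their median was -0.21 and their range -1.25 to -0.0041, and 1 of them, Cdk19, was called. The signs of Med13, Med12l and Ccnc turned above 0 with library totals, so that the count of 7 holds for some scalings only. With the columns as deposited Med12, Med12l, Med13, Med13l, Cdk8 and Ccnc all lay above 0, and Cdk19 alone stayed below. In LEKU against LE the module spread the most, from -0.61 for Med12l to 0.50 for Med12, with 3 genes above 0 and 4 below. In LEKU against LPS 6 of the 7 were below 0, with a median of -0.45, where 7466 of the 15596 kept genes were below 0. Cdk19 and Med12l were called, of which Cdk19 alone was called with library totals. Every other module had a median between -0.035 and 0.20 in that comparison, leaving aside the single backbone gene. Cdk19, Med12l and Med13l are also among the members with the longest genomic span, so module and span cannot be told apart for them.

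**Figure D3:**
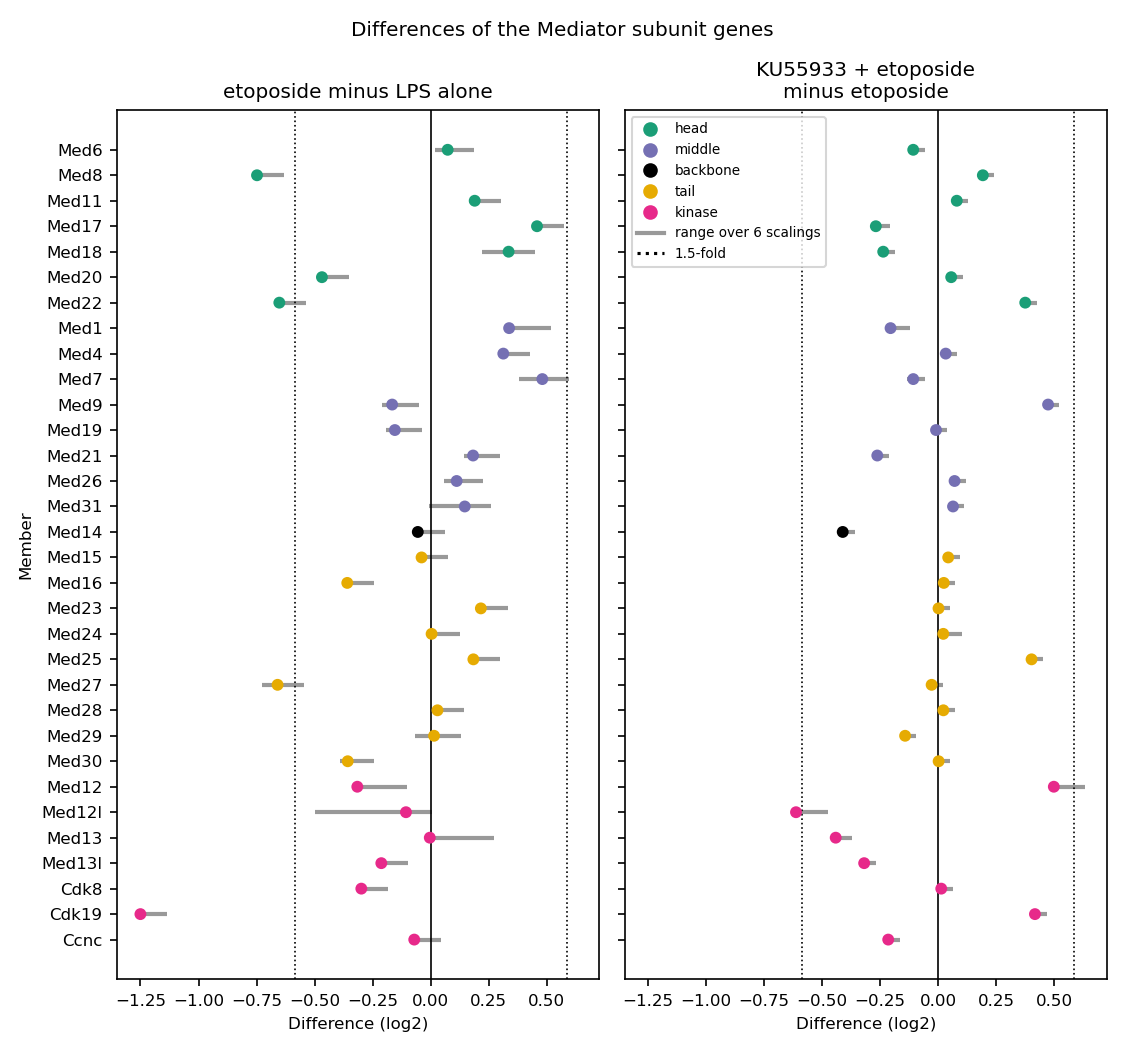
Log2 difference of each of the 32 kept Mediator genes in LE against LPS (left) and LEKU against LE (right), with points coloured by module, grey bars for the range over 6 scalings and dotted lines at 1.5-fold. On the left Cdk19, Med8, Med27 and Med22 lie beyond the lower line, and on the right only Med12l does. The bars of Med22, Med27 and Med12l reach back inside the line. The columns as deposited are not among the 6 scalings.

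Med14, the backbone around which the modules are arranged, was at 2631 in LPS, 2531 in LE and 1903 in LEKU. Its log2 differences were -0.056 in LE against LPS, -0.41 in LEKU against LE and -0.47 in LEKU against LPS, all inside 1.5-fold. The first turned sign over the scalings, from -0.061 to 0.059, and the second did not, from -0.42 to -0.36. With the size factors, Med13 and Med14 thus had similar levels in LPS and LE and a lower level in LEKU. Per kilobase, Med14 ranked 10 of the 32 members in LPS, 9 in LE and 18 in LEKU.

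The head module, which contacts the polymerase directly, held members on both sides. Med8, which joins the Med18 and Med20 pair to the rest of the head, was at 1228 in LPS, 731 in LE and 835 in LEKU, with a log2 difference of -0.75 (1.68-fold lower) in LE against LPS. Med22, a partner of Med11 in a small heterodimer, was at 1038, 660 and 856, with -0.65 (1.57-fold lower) in LE against LPS and 0.37 in LEKU against LE. Both were called lower in LE. The call of Med22 was lost with library totals and with factors set on genes with a mean of 100 or more, and both calls were lost with the columns as deposited. At the other end stood Med17, the central scaffold of the head, at 1499, 2059 and 1709, with 0.46 in LE against LPS and -0.27 in LEKU against LE.

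The 4 remaining head genes lay inside 1.5-fold in LE against LPS. Med20 was the lowest of them, at 1144 in LPS, 826 in LE and 859 in LEKU (log2 difference -0.47 in LE against LPS). Of its exonic bases 28.4% are shared with other genes. Med18, its direct partner, was at 207, 262 and 222, that is 0.34 higher in LE than in LPS. The head as a whole had a median of 0.073 in LE against LPS and 0.056 in LEKU against LE, with no call in the latter. Med11 was its highest gene in LEKU against LPS, at 0.27.

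The middle module, which works as a hinge between the head and the tail, had no member past 1.5-fold in any comparison. In LE against LPS, 6 of its 8 kept genes were above 0, where 7776 of the 15596 kept genes were, and the module median was 0.16. Med7, which pairs with Med21 in the hinge, was highest, at 238 in LPS, 333 in LE and 309 in LEKU, and its log2 difference of 0.48 in LE against LPS was the highest of all 32 members. It passed 1.5-fold with library totals, and 21.2% of its exonic bases are shared with other genes. Med1, the subunit best known as the docking site of nuclear receptors, was at 4143, 5236 and 4541, 0.34 higher in LE than in LPS.

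Med9 was the lowest of the middle module in LE against LPS and the highest in LEKU against LE, at 483 in LPS, 431 in LE and 598 in LEKU. Its log2 differences were -0.17 and 0.47. Med26, whose binding to the core and that of the kinase module largely exclude each other, was at 411, 444 and 467. Med21 was the lowest in LEKU against LE, at -0.26, and Med19 in LEKU against LPS, at -0.16.

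The tail module, the main landing surface of transcription factors, held members with little difference and a pair of called ones. Med27 was at 379 in LPS, 239 in LE and 235 in LEKU, with log2 differences of -0.66 in LE against LPS (1.58-fold lower) and -0.69 in LEKU against LPS (1.61-fold lower). It was the member called lower in LE whose level in LEKU was no higher than in LE, with a difference of -0.029 that turned sign over the scalings. With library totals both calls of Med27 were lost, at -0.54 in LE against LPS and -0.52 in LEKU against LPS, and both were lost with the columns as deposited. Med25, a target of viral and cellular activators, was at 1041, 1182 and 1562, with log2 differences of 0.18, 0.40 and 0.59 in LE against LPS, LEKU against LE and LEKU against LPS.

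Med25 was the only member called higher, and it was just past the threshold of 1.5-fold. The call was lost with factors taken from the authors' mean, with a pseudocount of 5 and when any of the 4 LE libraries was left out of the size factors. The members that came nearest to the threshold in LEKU against LPS without passing it were Med8 at -0.56 and Med13l at -0.53. Med16 and Med30 had log2 differences of -0.36 in LE against LPS, at 748 in LPS and 583 in LE for Med16 and 561 and 437 for Med30. Med23 was the tail gene highest in LE against LPS, at 0.22, and Med29 the lowest in LEKU against LE, at -0.14. With the size factors Med24 was the steadiest member, at 3024, 3032 and 3077, a ratio of 1.02 between its highest and lowest condition. With library totals and with quantile normalization Med24 was not the steadiest, and its LE against LPS difference reached 0.13. Med15, a target of SREBP and other activators, had a ratio of 1.03 and Med28 of 1.04.

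Med10, a middle subunit that every Mediator core contains, was almost without counts in this table. Its fitted level was 0.092 in LPS, 0.081 in LE and 0.081 in LEKU, and it was left out of all counts above. In the GENCODE annotation the gene lies on the plus strand of chromosome 13 from base 69802395 to 69816104 of GRCm38, and 92.8% of its exonic bases are also exons of Gm26819 on the opposite strand. Gm26819 was at 220, 247 and 257. The library kit was stranded, but how the counting treated the strand is not given. Counts of Med10 and Gm26819 therefore cannot be told apart here, and the level of Med10 in these cells is not known from these values.

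Ordered by level per kilobase of exonic length, Med12 ranked 1 and Med13 ranked 2 in LPS, at 756 and 703. In LE the order of both was exchanged, with Med13 at 701 and Med12 at 607. In LEKU Med12 ranked 1 at 858 and Med13 ranked 4 at 516, behind Med11 at 610 and Med1 at 519. Cdk19 showed the widest shift of place, from rank 4 in LPS to rank 18 in LE and rank 10 in LEKU. Neighbouring ranks cannot be separated by an error, since the table holds none. LPS was the condition with the highest level for 14 members, LEKU for 11 and LE for 7, or 43.75%, 34.38% and 21.88%, where the shares over all kept genes were 39.57%, 26.49% and 33.94%.

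The 4 longest members were all lower in LE and LEKU than in LPS. Of the 32 members, 4 span over 100 kb of the genome, namely Med12l (313 kb), Med13l (205 kb), Med27 (178 kb) and Cdk19 (144 kb). Their LE against LPS differences ran from -1.25 to -0.11 with a median of -0.44, and their LEKU against LPS differences from -0.83 to -0.53 with a median of -0.70. The 1483 kept protein-coding genes of that span had medians of -0.24 and -0.30. The 11 members under 10 kb had medians of 0.15 and 0.051, against 0.031 and 0.12 for the 3081 protein-coding genes of that size. The sign of Med12l in LE against LPS turned above 0 with library totals, and those of Med12l and Med13l with the columns as deposited. Med12l, Med13l and Cdk19 belong to the kinase module, so span and module cannot be told apart for them. Med8 and Med22, also called lower in LE, are short, at 6.45 and 5.42 kb.

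As a description across genes, which share their libraries, Spearman's rho between span and difference over the 32 members was -0.29 in LE against LPS, -0.32 in LEKU against LE and -0.48 in LEKU against LPS. Over 12586 protein-coding genes it was -0.098, -0.11 and -0.17. The members called in LE against LPS stand at both ends of the range of spans, so the ordering by span is loose.

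**Figure D4:**
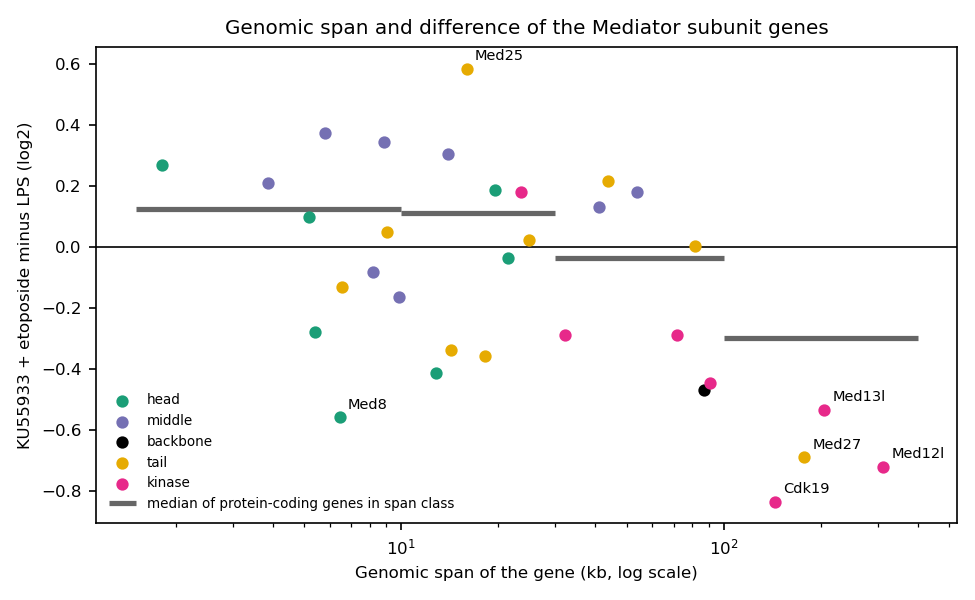
Genomic span (kb, log scale) against the log2 difference of LEKU against LPS for the 32 kept Mediator genes, coloured by module, with horizontal bars for the median of protein-coding genes in 4 span classes. The 4 members over 100 kb lie between -0.83 and -0.53, below the median of -0.30 of their class.

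The promoters of the members were searched for short motifs to describe what sequence they share. RefSeq windows (GRCm38.p6, from 250 bases before to 50 after a transcription start) were at hand for 28 of the 33 members, and both strands were searched. Med8, Med23, Med24, Med30 and Cdk19 had no window. The motif counts therefore leave out Cdk19 and Med8, which were called lower in LE. The ETS-type motif CCGGAAG was present in 8 of the 28 (28.6%), against 9.93% of 27025 genes and 19.7% of the 10193 kept genes with a window. CCAAT, the NF-Y motif, was present in 11 (39.3%), against 41.1% and 42.9%, and GCATGCGC, part of the NRF1 motif, in 3 (10.7%), against 3.05% and 5.88%. TATAAA was present in 3 (10.7%), against 15.7% and 8.80%. The half-site consensus of p53 was present in 2, Med17 and Med27 (7.14%), against 9.55% and 8.12%. A match is a string of letters and not a bound site, and genes with several starts have several windows.

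The ETS-type matches of the head and backbone genes are shown because they include Med17, the head gene highest in LE, and Med14, whose level was lowest in LEKU. They were thus picked by level. Those of Med17 and Med14 lie before the start, and those of Med18 and Med6 after it. The half-sites are shown because p53 targets were among the high genes in LE. Capitals mark the motif or its reverse complement, read along the gene's strand.
Med17 ETS-type motif, at -116 from the start, chr9:15280006-15280032, minus strand: gcccggtcagCCGGAAGttcctggctc
Med14 ETS-type motif, at -225, chrX:12762182-12762208, minus strand: ggcggcgcggCTTCCGGcgccttgcgc
Med18 ETS-type motif, at 7, chr4:132463899-132463925, minus strand: cagcttcctaCCGGAAGtgctgaaggg
Med6 ETS-type motif, at 15, chr12:81594978-81595004, minus strand: ttactgtgcgCCGGAAGgaggctctta
Med17 p53 half-site, at 41, chr9:15279857-15279876, minus strand: ggcttgcgggAAGCTTGTTC
Med27 p53 half-site, at -104, chr2:29378400-29378429, plus strand: ctgccatggtAGGCTTGTCTgtctatacag
The genes shown with the ETS-type motif were not alike in LE against LPS. Med17 was 0.46 and Med18 0.34 higher in LE than in LPS, Med6 was 0.073 higher and Med14 stood at -0.056. The motif was also present at Med4 (0.31), Med15 (-0.039), Med19 (-0.15) and Med10, which did not pass the filter. The half-site of Med27 belongs to an internal start inside the gene, which begins at base 29346819 in the GENCODE annotation. Med17 and Med27, which share the half-site, lay on opposite sides in LE against LPS, at 0.46 and -0.66.

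The polymerase and the general factors that Mediator works with were described in the same way. All 13 genes of RNA polymerase II subunits were kept, and in LE against LPS 2 were higher and 0 lower than 1.5-fold, with a median of 0.0041. Polr2a, the largest and catalytic subunit, was at 11057 in LPS, 19081 in LE and 15878 in LEKU, 0.79 higher in LE than in LPS, and Polr2h was at 732, 1131 and 727, 0.63 higher. In LEKU against LE 1 was higher, Polr2g of the stalk (0.84), and 1 was lower, Polr2h (-0.64), with a median of -0.21. In LEKU against LPS Polr2g was again the 1 called, and 2 subunits were called with TMM factors, library totals or quantile normalization.

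Of 30 genes of the preinitiation complex, 29 were kept, and in LE against LPS 3 were higher and 1 lower, with a median of 0.053. The TFIID subunits Taf13 and Taf7 were 1.14 and 1.07 higher and Gtf2e1 of TFIIE was 0.85 higher, while Ccnh, the cyclin of the TFIIH kinase, was lower at -0.86. In LEKU against LE 0 were higher and 1 was lower, Gtf2e1 (-0.66), and in LEKU against LPS 2 were higher and 3 lower. Both lists thus held genes past 1.5-fold on the higher side in LE, where the Mediator list held 0 of 32, at shares of 15.4% for the polymerase, 10.3% for the preinitiation complex and 22.2% for all kept genes. The difference between these lists was not tested.

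**Figure D5:**
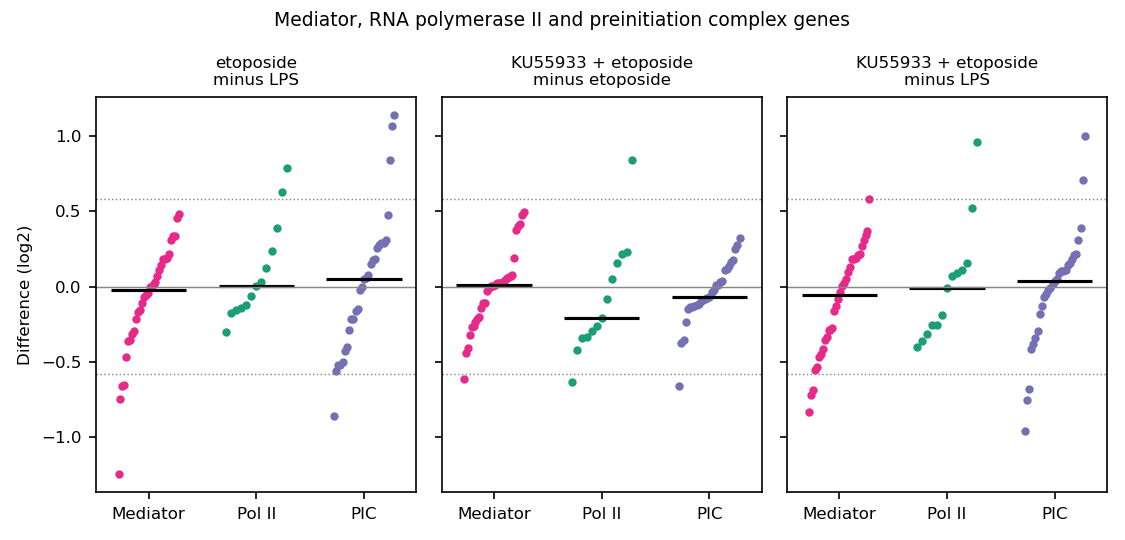
Log2 differences of the kept Mediator (32), RNA polymerase II (Pol II, 13) and preinitiation complex (PIC, 29) genes in the 3 comparisons, sorted within each list, with black bars for medians and dotted lines at 1.5-fold. In LE against LPS the Mediator genes run from -1.25 to 0.48, and the polymerase and preinitiation lists reach 0.79 and 1.14.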

How the data were processed

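Whole-cell polyadenylated RNA from 12 libraries was sequenced by the authors with 100-base single reads, trimmed with Trim Galore (cutadapt 1.2.1), aligned to GRCm38 (mm10) with TopHat2 2.0.12, counted per gene with HTSeq on an Ensembl annotation and analysed with DESeq2 1.6.3. The deposited table holds normalized counts as a signal for each library. Within a condition its columns are proportional, so they hold fitted means and no replicate spread, and whether these means carry DESeq2's moderation of differences toward 0 was not examined. A test on log2(value + 1) had been planned in case the columns held values per replicate. It could therefore not be used, and no p-value is given. The 3 deposited comparison files hold a mean signal, a log2 fold change with its standard error, a Wald statistic and p-values. Of these only the mean over all libraries was used, for a scaling alternative.

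Size factors were medians of ratios over 15006 genes with a mean of 10 or more, a gene set chosen after seeing that it lay closest to the authors' mean. The filter on low values asked for a level of 10 or more in 4 or more libraries, and differences were taken on log2(level + 1). Calls needed 1.5-fold. Exonic length and span came from GENCODE gene models of GRCm38, which matched 99.5% of the gene identifiers and all 33 members. Genes given in full were the kinase module pairs, Ccnc, Med14 and each member past 1.5-fold in any comparison, and other members were given as the highest and lowest of a module, with Med1, Med6, Med10, Med15, Med16, Med18, Med20, Med24, Med26, Med28 and Med30 added after their values were seen. For the polymerase and preinitiation lists the genes named were up to 3 on each side past 1.5-fold in LE against LPS, and Polr2g was added after its values were seen. The members and lists were chosen with earlier results of these data known. Groups came from the sample labels. Python 3.11.15, numpy 2.4.6, pandas 2.3.3 and scipy 1.17.1 were used.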

Additional observations from a re-analysis of the deposited data

How the results depend on the processing

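No paired analysis was possible because the columns hold fitted condition means, so replicate numbers carry no deviations. Leaving out a library acts only through the size factors, since the columns of a condition are proportional, and says nothing about replicate spread. Given here are the alternatives that moved a count by over 1.5 times or a median by 0.1 or more. With library totals the LE against LPS calls were 1 higher and 2 lower, with medians of 0.093 for the members and 0.11 for all genes, LEKU against LE had 0 lower calls, and LEKU against LPS had 1 lower call and medians of 0.11 and 0.20. With columns as deposited, LE against LPS gave 5 higher and 1 lower members, medians of 0.30 and 0.32 and 1139 lower genes in all, and LEKU against LPS gave 2 higher and 1 lower members, medians of 0.17 and 0.26 and 1389 lower genes. The Med12l call of LEKU against LE fell to 0 with TMM, quantile normalization (1 higher, Med12) and a pseudocount of 5. The Med25 call of LEKU against LPS fell to 0 with the pseudocount of 5 and with factors from the authors' mean, an alternative chosen after seeing the data, and ranged from 0 to 1 when single libraries were left out, each LE library giving 0. With a minimum of 50, LE against LPS had 2221 higher genes, LEKU against LE 1182 lower and LEKU against LPS 2148 higher, and with 10 in every library LEKU against LE had 1194 lower. With calls at a change of 25%, LE against LPS had 4 higher and 7 lower members and 4470 lower genes, LEKU against LE 5 and 3 members and 2715 higher and 3759 lower genes, and LEKU against LPS 3 and 10 members and 4922 and 4330 genes. With calls at 2-fold, LE against LPS had 1 lower member and 2241 higher and 902 lower genes, LEKU against LE 0 lower members and 271 and 726 genes, and LEKU against LPS 0 higher and 0 lower members and 1763 and 911 genes. Of the 32 members, 24, 28 and 27 kept a single sign over 6 scalings in LE against LPS, LEKU against LE and LEKU against LPS. These 6 left out the columns as deposited. With those columns the sign differed from that with the size factors for 10, 12 and 4 members, in the same order.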
